A study of Mus musculus with 4 samples.

Results

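Cytochromes P450 of families 1 to 3 are the enzymes with which the liver oxidizes drugs, steroids and many lipids, and their messenger RNA levels were described here in the livers of fed and fasted mice with and without the nuclear receptor PPARα. The members were all probe sets whose annotation named a single gene with a symbol of these families, that is Cyp followed by 1, 2 or 3, a subfamily letter and a number. This rule gave 46 of the 22626 probe sets of the array that are not controls, which represent 39 of the 12393 genes that have a probe set of their own, in 12 subfamilies. The rule used the names only and no measured value.

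Male mice aged 12 to 20 weeks were compared in 4 groups. Wild-type mice were of the substrain 129S1/SvImJ, for which the sample labels give 129Sv, and PPARα-null mice, which lack functional PPARα in every tissue, were of the substrain 129S4/SvJae. Each genotype was studied in 2 feeding states. Fed livers were taken as the night ended, and the fasted livers came from mice that had been without food for 24 hours, from one lights-on onward. The liver RNA of 5 mice was combined for each group and measured on 1 Affymetrix MOE430A array. Each value below is therefore that of a pool without replicates, and none of the differences carries an error or a p-value. Genotype and substrain cannot be told apart in any comparison between wild-type and null pools.

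Microsomal P450 enzymes take electrons from cytochrome P450 reductase and, for some reactions, from cytochrome b5, and insert an oxygen atom into their substrates with the help of a heme group. Their genes are known targets of ligand-activated receptors in hepatocytes. The aryl hydrocarbon receptor acts on the Cyp1 genes, the constitutive androstane receptor CAR (gene Nr1i3) on Cyp2b10, and the pregnane X receptor PXR (gene Nr1i2) on Cyp3a11, while PPARα itself is better known for its targets in the Cyp4a family, which metabolizes fatty acids. Several subfamilies are tandem clusters of genes that arose by duplication, so their members resemble one another in sequence and a probe set of one may also detect another.

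The promoters of the genes on which the results turn were also compared within the subfamilies. Probe sets detect transcripts, so the promoters do not show whether a probe set of one gene detects another. RefSeq start sites on GRCm38.p6 were found for 32 of the 39 genes, with 35 entries. The windows printed here are the 250 bases before the start, 5′ to 3′ on the strand of the gene, and the capitals mark matches on either strand to 5 motifs, namely the nuclear receptor half-site AGGTCA, the HNF4 core CAAAGT, the HNF1 half-site GTTAAT, the aryl hydrocarbon receptor core GCGTG and the TATA box TATAAA. The Cyp2b genes are shown because 1 of them was abundant in a single pool while its close relatives were not measured on any array. Their windows are Cyp2b10 at chr7:25897408-25897657, Cyp2b9 at chr7:26173159-26173408 and Cyp2b13 at chr7:26061245-26061494, all on the plus strand.
Cyp2b10: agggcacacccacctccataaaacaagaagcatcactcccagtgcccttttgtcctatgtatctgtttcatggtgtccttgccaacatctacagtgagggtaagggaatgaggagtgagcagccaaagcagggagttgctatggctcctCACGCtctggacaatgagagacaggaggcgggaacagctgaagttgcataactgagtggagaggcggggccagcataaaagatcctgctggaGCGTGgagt
Cyp2b9: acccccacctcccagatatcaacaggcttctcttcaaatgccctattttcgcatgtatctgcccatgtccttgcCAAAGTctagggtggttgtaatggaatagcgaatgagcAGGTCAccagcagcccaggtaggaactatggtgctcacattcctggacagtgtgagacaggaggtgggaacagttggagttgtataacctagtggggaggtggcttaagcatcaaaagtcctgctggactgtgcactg
Cyp2b13: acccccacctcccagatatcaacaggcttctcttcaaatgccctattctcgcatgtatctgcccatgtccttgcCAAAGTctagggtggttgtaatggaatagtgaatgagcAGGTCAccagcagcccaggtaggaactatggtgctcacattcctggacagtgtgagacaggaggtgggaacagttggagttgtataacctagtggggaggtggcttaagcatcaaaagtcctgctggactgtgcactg

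The windows of Cyp2b9 and Cyp2b13 were identical at 248 of 250 bases (99.2%), while that of Cyp2b10 was 70.0% identical to either and 66.5% to that of Cyp2b19. Cyp2b9 and Cyp2b13 each held 1 AGGTCA and 1 CAAAGT, which in Cyp2b9 began 138 and 176 bases before the start. Cyp2b10 held neither and had 2 matches to GCGTG, beginning 101 and 9 bases before the start. A match is a string of letters and not evidence that a factor binds there.

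The Cyp2c genes are shown because 2 of them, Cyp2c39 and Cyp2c70, differed in opposite directions between the fasted pools. Cyp2c39 has 2 RefSeq starts, at the ends of the windows chr19:39347096-39347345 and chr19:39510572-39510821 on the plus strand. Cyp2c38 lies at chr19:39463076-39463325 on the minus strand, Cyp2c29 at chr19:39286835-39287084 on the plus strand and Cyp2c70 at chr19:40187287-40187536 on the minus strand.
Cyp2c39, first start: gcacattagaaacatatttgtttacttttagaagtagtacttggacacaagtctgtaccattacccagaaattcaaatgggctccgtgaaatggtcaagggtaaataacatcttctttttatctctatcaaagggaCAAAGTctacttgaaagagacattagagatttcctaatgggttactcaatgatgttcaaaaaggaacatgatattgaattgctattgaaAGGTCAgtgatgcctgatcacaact
Cyp2c39, other start: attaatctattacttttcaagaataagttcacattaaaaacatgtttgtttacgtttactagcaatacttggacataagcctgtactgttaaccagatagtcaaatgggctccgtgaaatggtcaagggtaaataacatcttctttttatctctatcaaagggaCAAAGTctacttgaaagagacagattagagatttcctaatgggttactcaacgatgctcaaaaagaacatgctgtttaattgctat
Cyp2c38: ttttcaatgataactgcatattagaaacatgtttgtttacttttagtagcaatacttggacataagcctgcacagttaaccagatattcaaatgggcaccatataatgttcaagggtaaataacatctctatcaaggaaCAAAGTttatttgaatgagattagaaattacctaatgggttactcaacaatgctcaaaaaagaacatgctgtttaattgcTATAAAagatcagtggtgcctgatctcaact
Cyp2c29: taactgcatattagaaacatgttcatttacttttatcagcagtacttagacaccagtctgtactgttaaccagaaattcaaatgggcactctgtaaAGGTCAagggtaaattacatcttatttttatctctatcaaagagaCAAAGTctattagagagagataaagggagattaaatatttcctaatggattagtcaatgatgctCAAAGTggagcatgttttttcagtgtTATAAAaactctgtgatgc
Cyp2c70: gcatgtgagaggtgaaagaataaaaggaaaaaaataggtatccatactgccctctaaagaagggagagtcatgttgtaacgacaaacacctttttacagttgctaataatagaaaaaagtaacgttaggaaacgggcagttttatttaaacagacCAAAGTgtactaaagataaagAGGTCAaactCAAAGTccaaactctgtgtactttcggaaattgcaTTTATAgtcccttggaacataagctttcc

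The windows of Cyp2c39 were 75.8% and 71.0% identical to that of Cyp2c38, 74.1% and 68.1% to that of Cyp2c29, and only 48.7% and 47.0% to that of Cyp2c70. Every one of these 5 windows held CAAAGT at least once, and Cyp2c70 held it at 95 and 64 bases before the start, with AGGTCA at 74 and TATAAA at 29. Among all 35 member windows CAAAGT occurred in 18 (51.4%), compared with 12.6% of the 32851 promoter windows of the same length in the RefSeq table. AGGTCA occurred in 12 (34.3%, compared with 14.0%) and TATAAA in 16 (45.7%, compared with 12.4%). GCGTG was found in 7 (20.0%, compared with 28.2%) and GTTAAT in 2 (5.7%, compared with 6.4%). Some windows of tandem genes are near copies, such as those of Cyp2b9 and Cyp2b13, and the windows are not independent, so these shares are descriptions.

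Intensities are given in the linear units of the deposited table. A value below 16 units was treated as being at the floor, a gene was called measured when at least 1 array lay above that floor, and each gene was represented by its brightest probe set, by mean log2 over the 4 arrays. A difference was counted when it reached 1.5-fold, and a fold is written as at least when the lower value is at that floor. The 4 arrays had medians between 14.4 and 14.6 units, with 23.0% to 23.7% of probe sets at 64 units or more. The targeted gene Ppara lay at 583 units in the fed and 755 units in the fasted wild-type pool, and at 104 units and 16.3 units in the corresponding null pools. Of 12 hepatocyte markers 10 had a probe set, and all 10 were measured, with summed intensities between 103667 and 129283 units. The 3 adipocyte markers with a probe set were at the floor on all arrays, and 1 of 4 cholangiocyte markers was measured.

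Of the 39 genes 27 were measured and 12 were at the floor on all 4 arrays. Most of the measured genes were abundant, as 22 reached 64 units on some array and 17 had at least 1024 units on every array. The 12 genes at the floor were Cyp1a1 and Cyp1b1, 3 of the 4 Cyp2b genes (Cyp2b9, Cyp2b13 and Cyp2b19), Cyp2c55, Cyp2c65, Cyp2d34, Cyp2g1, Cyp2j13, Cyp2s1 and Cyp3a16. Several of them are known from other settings, Cyp2b19 from skin, Cyp2g1 from the olfactory mucosa, Cyp2c65 from the gut, Cyp3a16 from fetal liver, and Cyp2b9 and Cyp2b13 from female liver. A further 5 genes were measured without reaching 64 units, namely Cyp2c37, Cyp2c38, Cyp2d12, Cyp2j9 and Cyp3a44.

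**Figure D1:**
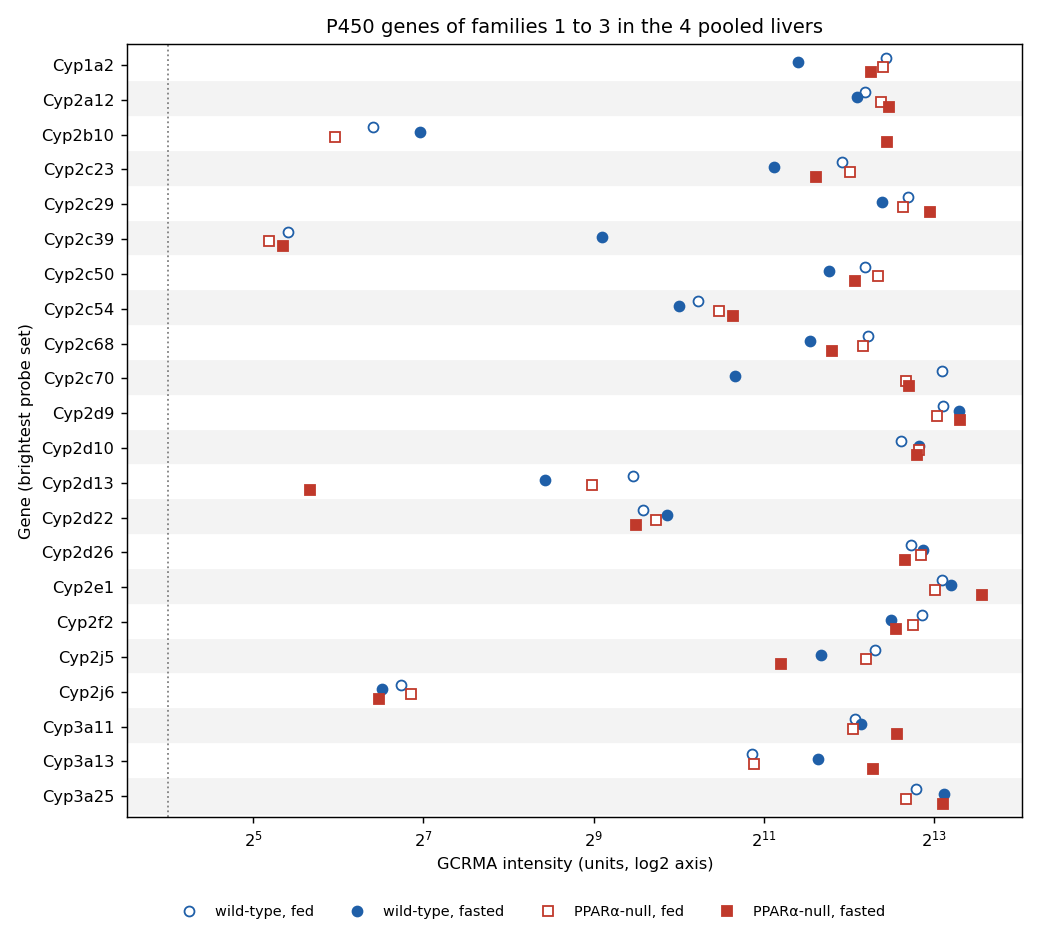
Intensity of the 22 P450 genes that reached 64 units, on a log2 axis in units, with 1 point for each of the 4 pooled arrays, the genes in rows by subfamily and a dotted line at the floor of 16 units. Most genes lie above 1024 units with their 4 points close together, while Cyp2b10 stands at 5574 units on the fasted null array and Cyp2c39 at 548 units on the fasted wild-type array.

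In the fed state few P450 genes, and few of all measured genes, differed by 1.5-fold or more between the genotypes. Of the 27 measured genes 1 was at least 1.5-fold higher in the null pool (3.70%) and 0 were lower, compared with 2.38% higher and 2.12% lower among all 6947 measured genes. The gene that was higher, Cyp2d12, had only 27.1 units in the wild-type and 57.5 units in the null pool. All 22 genes that reached 64 units stayed within 1.5-fold, with log2 differences from -0.48 for Cyp2d13 to 0.25 for Cyp2c54. Of all 3808 genes at that level 3.26% were higher and 3.15% lower in the null pool.

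In the fasted state the pools of the 2 genotypes were further apart. Of the 27 measured genes 6, or 22.2%, were at least 1.5-fold higher in the null pool, compared with 8.58% of all measured genes, and these were Cyp1a2, Cyp2b10, Cyp2c54, Cyp2c70, Cyp2d12 and Cyp3a13. The 3 genes Cyp2c38, Cyp2c39 and Cyp2d13 (11.1%) were lower, compared with 13.6% of all measured genes. The median log2 difference was 0.20 for the P450 genes and -0.01 for all measured genes. When the arrays were centred on their bright probe sets, Cyp2c23 and Cyp2c29 were also past the threshold and Cyp2c38 was not, which gave 8 higher and 2 lower genes. Cyp2c38 was measured only through the fasted wild-type array, so the direction of its differences in the comparisons that use that array was set by the filter.

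In wild-type mice more P450 genes were lower than higher after fasting. With 25.9% of the measured P450 genes, compared with 8.29% of all measured genes, 7 were lower by 1.5-fold or more after fasting, namely Cyp1a2, Cyp2c23, Cyp2c68, Cyp2c70, Cyp2d12, Cyp2d13 and Cyp2j5. The 3 genes Cyp2c38, Cyp2c39 and Cyp3a13 were higher (11.1%, compared with 8.20%). For Cyp2c38, measured through the fasted wild-type array alone, no other direction was possible. The median log2 difference was -0.09, compared with 0.00 over all measured genes.

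In PPARα-null mice fewer P450 genes passed the threshold on fasting. Cyp2b10 and Cyp3a13 were higher in the fasted null pool (7.41%, compared with 12.4% of all measured genes), and Cyp2d12, Cyp2d13 and Cyp2j5 were lower (11.1%, compared with 18.0%). The median was 0.00, compared with -0.01 over all measured genes. With centred arrays Cyp2e1 and Cyp3a11 also passed, which gave 4 higher and 3 lower genes. The comparisons share arrays with each other, the fasted wild-type array for example entering both the comparison of genotypes and that of feeding states in wild-type mice, so their counts are not separate pieces of evidence.

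**Figure D2:**
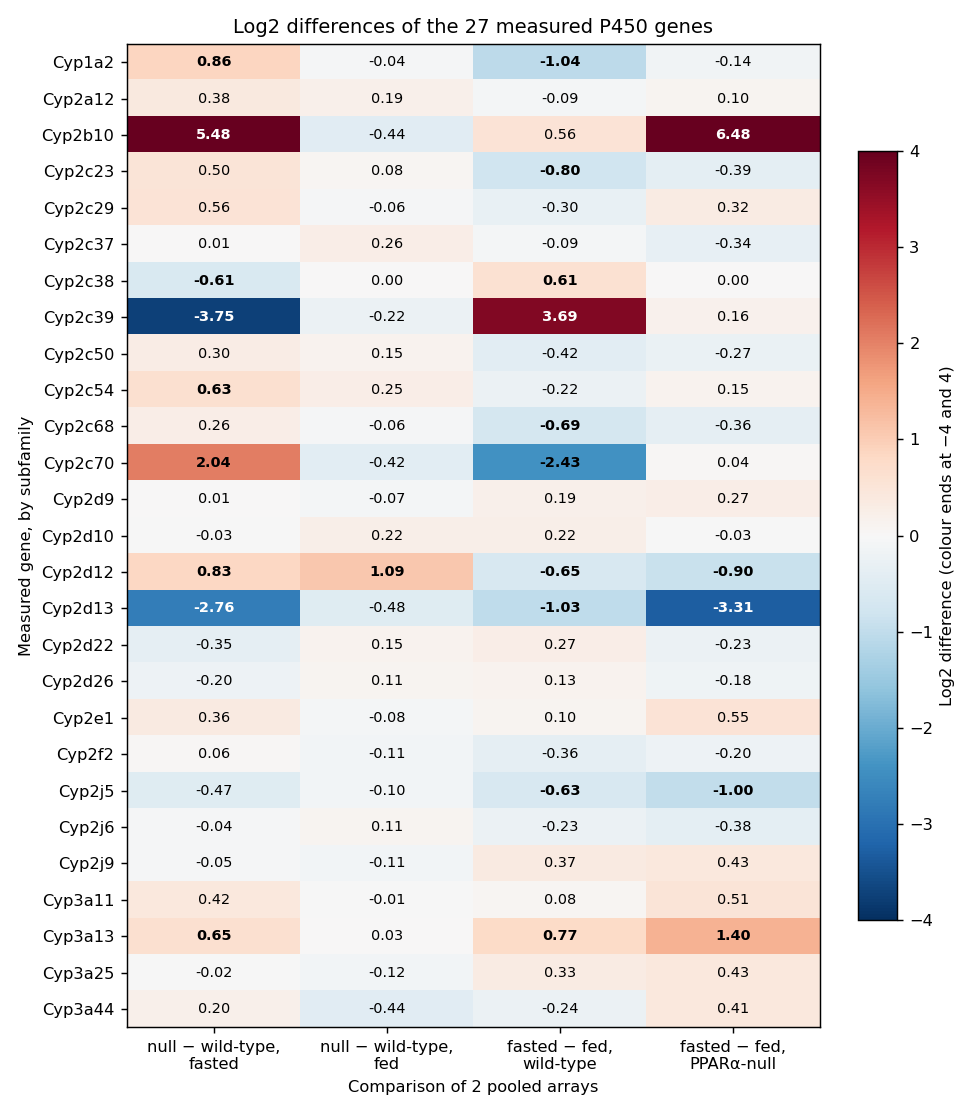
Log2 differences of the measured P450 genes in the 4 comparisons, with the genes in rows by subfamily, the comparisons in columns and the value written in each cell, bold where it reached 1.5-fold. The column of the fed genotypes is close to 0 for nearly all genes, while Cyp2b10 (5.48), Cyp2c39 (-3.75), Cyp2d13 (-2.76) and Cyp2c70 (2.04) stand out between the fasted pools.

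The largest difference of any member was that of Cyp2b10, the classical target of CAR in mouse liver. Its probe set had 84.7 units in the fed and 125 units in the fasted wild-type pool, and 62.5 units in the fed and 5574 units in the fasted null pool. The fasted null pool thus stood alone, with the other pools close together at a low level. Fasted null liver exceeded fasted wild-type liver 44.6-fold (log2 difference 5.48) and fed null liver 89.2-fold (6.48). In wild-type liver the fasted value was 1.48-fold higher, just under the threshold, and the fed genotypes differed by 1.36-fold.

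The array carries 3 probe sets for Cyp2b10, which gave the same picture at different sizes. The probe set with the highest mean has a suffix that marks probes shared with other transcripts, and so has another, which had 27.1, 43.9 and 26.8 units on the fed wild-type, fasted wild-type and fed null arrays and 2859 units on the fasted null array. The only probe set without such a suffix had 35.9, 46.2 and 31.8 units on the same arrays and 5210 units on the fasted null array. Between the fasted pools the differences of these other probe sets were 65.1-fold and 113-fold, so the size for Cyp2b10 depends on the probe set by more than 1.5 times while its direction does not. The probe sets of Cyp2b9, Cyp2b13 and Cyp2b19 were at the floor on the array on which Cyp2b10 was high.

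**Figure D3:**
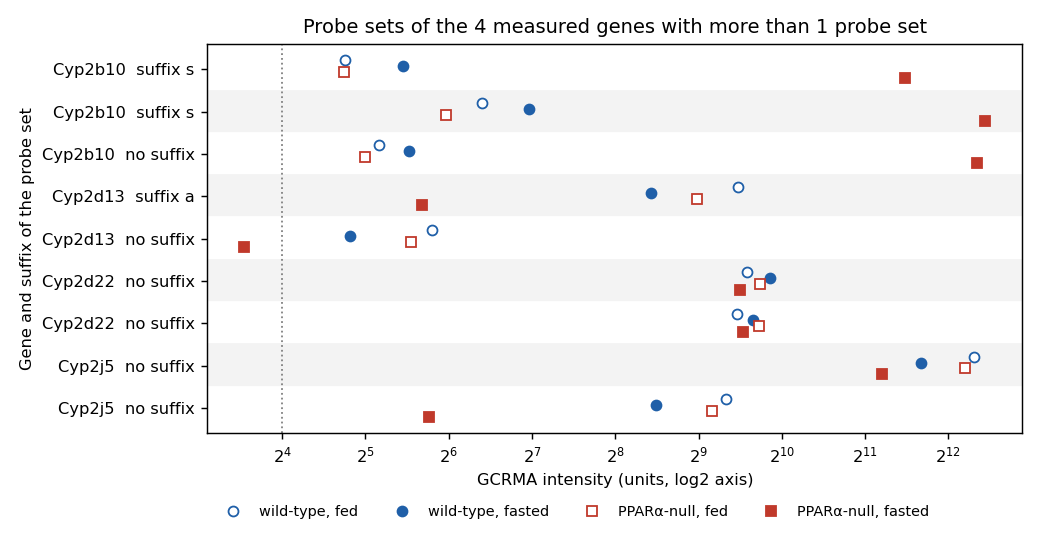
Intensity in units, on a log2 axis, of every probe set of the 4 measured P450 genes that have more than 1, in rows, with 1 point for each pooled array and a dotted line at the floor of 16 units. In all 3 rows of Cyp2b10 the fasted null array lies far to the right, at 5574, 5210 and 2859 units, while the rows of Cyp2j5 differ there, at 2354 and 54.4 units.

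Cyp2c39, which encodes a retinoic acid hydroxylase, had the opposite pattern. It had 42.6 units in the fed wild-type pool, 548 units in the fasted wild-type pool, 36.5 units in the fed null pool and 40.8 units in the fasted null pool. Here the fasted wild-type pool stood alone, and the remaining pools were near one another below 64 units. Fasting was accompanied by a 12.9-fold higher intensity in wild-type liver (log2 difference 3.69) and a 1.12-fold higher intensity in null liver (0.16). Between the fasted pools Cyp2c39 was 13.4-fold lower in the null pool (-3.75). Its neighbour Cyp2c38 had 24.4 units in the fasted wild-type pool and was at the floor on the other arrays, so it was at least 1.53-fold higher with fasting in wild-type liver. Whether this dim signal comes from Cyp2c38 or from Cyp2c39 was not tested.

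The abundant Cyp2c genes other than Cyp2c39 all had their lowest value on the fasted wild-type array. Cyp2c70, which in mice converts bile acids to muricholic acids, had 8714 units in the fed and 1622 units in the fasted wild-type pool, and 6517 units and 6689 units in the corresponding null pools. Fasted wild-type liver was the exception, with the other 3 pools between 6517 and 8714 units. Cyp2c70 was 5.37-fold lower with fasting in wild-type liver (log2 difference -2.43) and 1.03-fold higher in null liver (0.04). Between the fasted pools the null was 4.12-fold higher (2.04), and in the fed state 1.34-fold lower in the null pool.

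Smaller differences of the same direction were seen in other Cyp2c genes. Cyp2c23, an arachidonic acid epoxygenase, had 3885 units and 2226 units in fed and fasted wild-type liver and 4119 units and 3137 units in fed and fasted null liver. It was 1.75-fold lower with fasting in the wild-type and 1.31-fold lower in the null pools, and its only probe set carries the suffix for shared probes. For Cyp2c68 the intensities were 4800 units and 2979 units in wild-type liver, fed and fasted, and 4592 units and 3575 units in null liver. This was a 1.61-fold lower value with fasting in wild-type and a 1.28-fold lower value in null mice. Cyp2c54 had 1200 units and 1028 units in wild-type and 1427 units and 1589 units in null liver, fed and fasted, and was 1.55-fold higher in the fasted null than in the fasted wild-type pool.

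The remaining abundant Cyp2c genes passed the threshold in no comparison. Cyp2c29 had 6608 units and 5367 units in wild-type and 6343 units and 7904 units in null liver, and differed 1.47-fold between the fasted pools. Cyp2c50 had 4682 units and 3495 units in wild-type and 5203 units and 4302 units in null liver, and was 1.34-fold lower with fasting in the wild-type pools. Cyp2c37 had between 17.2 and 21.9 units and is therefore close to the floor on every array.

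Cyp1a2, which metabolizes caffeine and aromatic amines, followed the pattern of Cyp2c70. It had 5558 units in fed and 2710 units in fasted wild-type liver, and 5411 units in fed and 4922 units in fasted null liver. The fasted wild-type pool was lowest by a wide margin. Cyp1a2 was 2.05-fold lower with fasting in wild-type liver (log2 difference -1.04) and 1.10-fold lower in null liver (-0.14), and the null exceeded the wild-type 1.82-fold between the fasted pools. Cyp1a1, the most inducible target of the aryl hydrocarbon receptor, was at the floor on all arrays, as were the 3 probe sets of Cyp1b1.

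In the Cyp2d subfamily the abundant genes were steady and a pseudogene was not. Cyp2d9, a male-predominant testosterone 16α-hydroxylase, had 8780 units and 10029 units in wild-type liver, fed and fasted, and 8358 units and 10098 units in null liver. In the same order Cyp2d10 had 6246 units, 7261 units, 7263 units and 7132 units. Cyp2d26 had 6804 units, 7459 units, 7336 units and 6483 units, and Cyp2d22 had 768 units, 928 units, 851 units and 726 units. None of these 4 genes passed the threshold in any comparison. The only probe set of Cyp2d9 carries a suffix for probes that can match several transcripts. Cyp2d13, which RefSeq classes as a transcribed pseudogene, had 709 units and 346 units in fed and fasted wild-type liver and 507 units and 51.1 units in fed and fasted null liver. It was lowest in the fasted null pool. The fasted values were lower than the fed ones by 2.05-fold in wild-type mice (log2 difference -1.03) and by 9.94-fold in null mice (-3.31), and the fasted null pool was 6.78-fold below the fasted wild-type pool (-2.76). The probe set used carries a suffix for probes that can match several transcripts. The second probe set of Cyp2d13 has no suffix and was dimmer, with 55.9 units, 28.1 units and 46.8 units on the fed wild-type, fasted wild-type and fed null arrays and a value at the floor on the fasted null array, which gave differences of 1.99-fold, at least 2.92-fold and at least 1.76-fold in the same directions. Cyp2d12 was dim, with 27.1 units and 17.3 units in wild-type and 57.5 units and 30.8 units in null liver, and was higher in the null pools by 2.12-fold when fed and 1.78-fold when fasted.

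Among the Cyp3a genes, whose products account for much of steroid and drug oxidation, Cyp3a13 alone passed the threshold. Cyp3a13 had 1861 units in fed and 3174 units in fasted wild-type liver, and 1895 units in fed and 4993 units in fasted null liver. Both fasted pools lay above both fed pools. The fold with fasting was 1.71 in wild-type liver (log2 difference 0.77) and 2.63 in null liver (1.40), and between the fasted pools the null was 1.57-fold higher. Cyp3a11, the main target of PXR in mouse liver, had 4290 units, 4520 units and 4250 units on the fed wild-type, fasted wild-type and fed null arrays and 6059 units on the fasted null array, which was 1.43-fold above the fed null value. Cyp3a25 had 7075 units and 8892 units in wild-type and 6498 units and 8782 units in null liver, 1.26-fold and 1.35-fold higher in the fasted pools. Cyp3a44, a gene better known from female liver, was dim at 29.6 to 40.1 units.

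Cyp2j5, an arachidonic acid epoxygenase of liver and kidney, was lower in both fasted pools. It had 5066 units and 3269 units in fed and fasted wild-type liver and 4718 units and 2354 units in fed and fasted null liver, or 1.55-fold lower with fasting in wild-type and 2-fold lower in null mice. Its second probe set was dimmer and moved further, with 646 units and 358 units in wild-type and 572 units and 54.4 units in null liver, or 1.80-fold and 10.5-fold lower. Between the fasted pools the first probe set of Cyp2j5 differed by 1.39-fold and the second by 6.58-fold, so the probe sets disagree on whether this gene passed the threshold there. Cyp2j6 had 107 units and 91.5 units in wild-type and 116 units and 89.3 units in null liver, fed and fasted, and Cyp2j9 between 15.3 and 22.2 units.

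Among the single genes of their subfamilies, Cyp2e1, which oxidizes ethanol and acetone, had 8749 units and 9398 units in fed and fasted wild-type liver and 8256 units and 12077 units in fed and fasted null liver. The fasted null pool was highest, 1.46-fold above the fed null pool and so just under the threshold. Cyp2a12 had 4655 units and 4363 units in wild-type and 5327 units and 5695 units in null liver. Cyp2f2, known for the bioactivation of naphthalene, had 7438 units and 5778 units in wild-type and 6883 units and 6007 units in null liver, and neither gene passed the threshold.

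Over the 4 arrays, 12 of the 22 genes that reached 64 units passed the threshold in no comparison (54.5%, compared with 45.1% of all 3808 genes at that level). The fasted wild-type array was the lowest of the 4 for 9 of the 22 genes, compared with 19.2% of all genes at that level, and by at least 1.5-fold from the next array for Cyp1a2 and Cyp2c70 (2.39% of all). It was the highest for 4 genes (25.0% of all), and by that margin for Cyp2c39 (4.10% of all). Cyp2c39 reached 64 units on that array only, so its place there was set by the filter. The fasted null array was the highest for 8 genes (30.1% of all), by that margin for Cyp2b10 and Cyp3a13 (7.43% of all). It was the lowest for 5 genes (39.2% of all), by that margin for Cyp2d13 (12.3% of all).

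The fasting difference can be set side by side in the 2 genotypes, since these comparisons share no array. Of the 22 genes 1 (Cyp3a13) was past the threshold upward in both genotypes (4.55%, compared with 6.64% of all 3808 genes at that level), and 2 (Cyp2d13 and Cyp2j5) were past it downward in both (9.09%, compared with 9.48%). The genes that passed in the wild-type comparison and not in the null comparison were the 5 genes Cyp1a2, Cyp2c23, Cyp2c39, Cyp2c68 and Cyp2c70 (22.7%, compared with 7.80%). Cyp2b10 passed in the null comparison and not in the wild-type comparison (4.55%, compared with 24.6%), 13 genes passed in neither (59.1%, compared with 50.3%), and 0 passed in opposite directions, compared with 0.945% and 0.289% of all. Cyp2c39 reached 64 units through the fasted wild-type array alone, so its place in these counts is set by that filter. Whether the response of any gene differed between the genotypes could not be tested with 1 array per group. The difference between the log2 fasting differences, null minus wild-type, was 5.92 for Cyp2b10, 2.46 for Cyp2c70, 0.90 for Cyp1a2, -2.28 for Cyp2d13 and -3.53 for Cyp2c39.

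**Figure D4:**
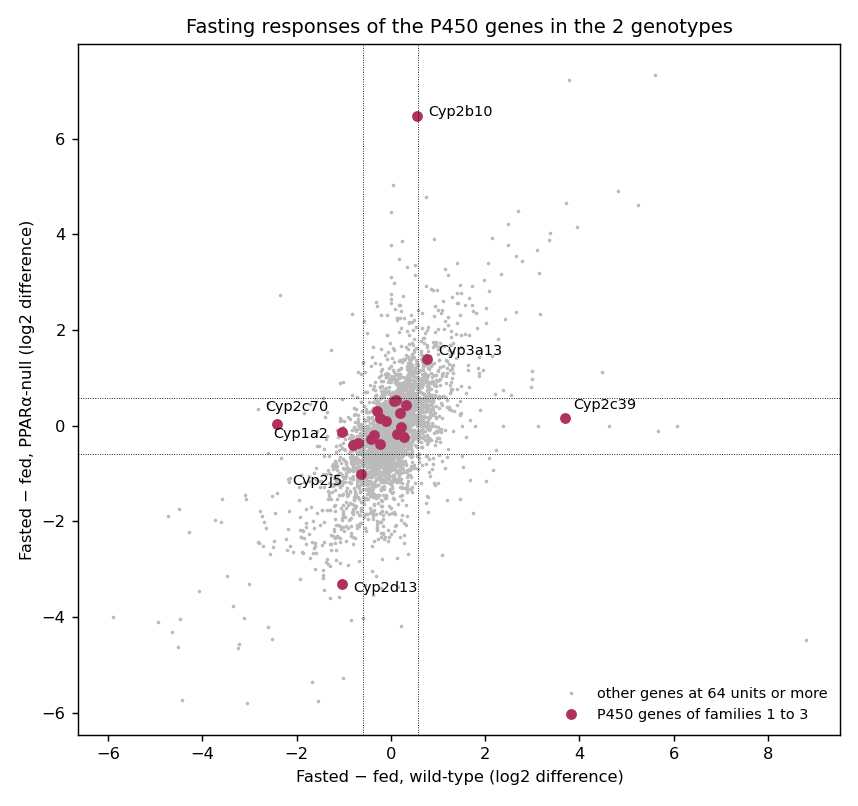
Log2 difference between the fasted and the fed array in wild-type mice (horizontal axis) and in PPARα-null mice (vertical axis), with a large point for each of the 22 P450 genes that reached 64 units, small grey points for the other genes at that level and dotted lines at 1.5-fold. Cyp2b10 lies far up at 0.56 and 6.48, Cyp2c39 far right at 3.69 and 0.16, Cyp2c70 left at -2.43 and 0.04, and Cyp2d13 and Cyp2j5 at the lower left.

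The receptors and other regulators of these genes, taken as a list of 13, were measured for 11 genes, and Arnt and Esr1 were at the floor. Between the fasted pools 2 were higher and 3 lower in the null pool, with a median log2 difference of -0.24. Over all measured genes 8.58% were higher and 13.6% lower in this comparison. Nr1i3, which encodes CAR, had 823 units and 2479 units in fed and fasted wild-type liver and 1129 units and 1819 units in fed and fasted null liver. The log2 difference of Nr1i3 with fasting was 1.59 in wild-type and 0.69 in null mice, and -0.45 between the fasted pools. These are levels of messenger RNA, and whether CAR had a part in the Cyp2b10 difference was not tested. The PXR gene Nr1i2 was at 26.5 units in fasted null liver and at 12.9 to 16.5 units on the other arrays, close to the floor. Ahr, which encodes the aryl hydrocarbon receptor, had 1043 units and 781 units in wild-type and 977 units and 1092 units in null liver.

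Further regulators differed between the fasted pools in either direction. Nr0b2, which encodes the repressor SHP, had 314 units and 124 units in wild-type and 290 units and 355 units in null liver, and was 2.88-fold higher in the fasted null pool. Nfe2l2, which encodes the oxidative stress factor NRF2, had 801 units and 448 units in wild-type and 751 units and 45.0 units in null liver, a log2 difference of -3.32 between the fasted pools. The bile acid receptor gene Nr1h4 had 589 units and 1017 units in wild-type and 530 units and 153 units in null liver (-2.73). Hnf4a, a master regulator of hepatocyte genes, lay between 2198 and 2676 units, and Rxra, the partner of these receptors, between 768 and 1081 units. The probe sets of Hnf4a disagree on fasting in null mice. The log2 difference was -0.01 for the one used and 0.66, 0.67 and 0.63, all past 1.5-fold, for the others. The fed genotypes differed past the threshold in 1 of the 11 measured regulators, which was Ppara itself, compared with 2.38% higher and 2.12% lower among all measured genes. With fasting, 2 were higher and 2 lower in wild-type mice, and 2 were higher and 4 lower in null mice. The shares of all measured genes were 8.20% and 8.29% in wild-type mice, and 12.4% and 18.0% in null mice.

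The enzymes that supply P450 proteins with electrons and heme were a list of 9, of which 8 had a probe set of their own and were measured, all but the reductase gene Por. Alas1, the rate-limiting enzyme of heme synthesis, had 853 units and 2810 units in fed and fasted wild-type liver and 1200 units and 6931 units in fed and fasted null liver. Both fasted pools were above both fed pools, and the fasted null pool was the highest of the 4. The log2 differences were 1.72 and 2.53 with fasting in wild-type and null mice, and 1.30 between the fasted pools. Cyb5b, which encodes the mitochondrial form of cytochrome b5, went the other way, with 1652 units and 442 units in wild-type and 1560 units and 314 units in null liver. The microsomal form Cyb5a stayed between 6939 and 7875 units, and the heme-degrading Hmox1 was dim at 31.8 to 62.4 units. Of the 8 genes 2 were higher and 0 lower in the fasted null compared with the fasted wild-type pool, with a median log2 difference of 0.07, and 0 passed the threshold between the fed pools. Among all measured genes 8.58% were higher and 13.6% lower between the fasted pools, and 2.38% and 2.12% between the fed pools.

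**Figure D5:**
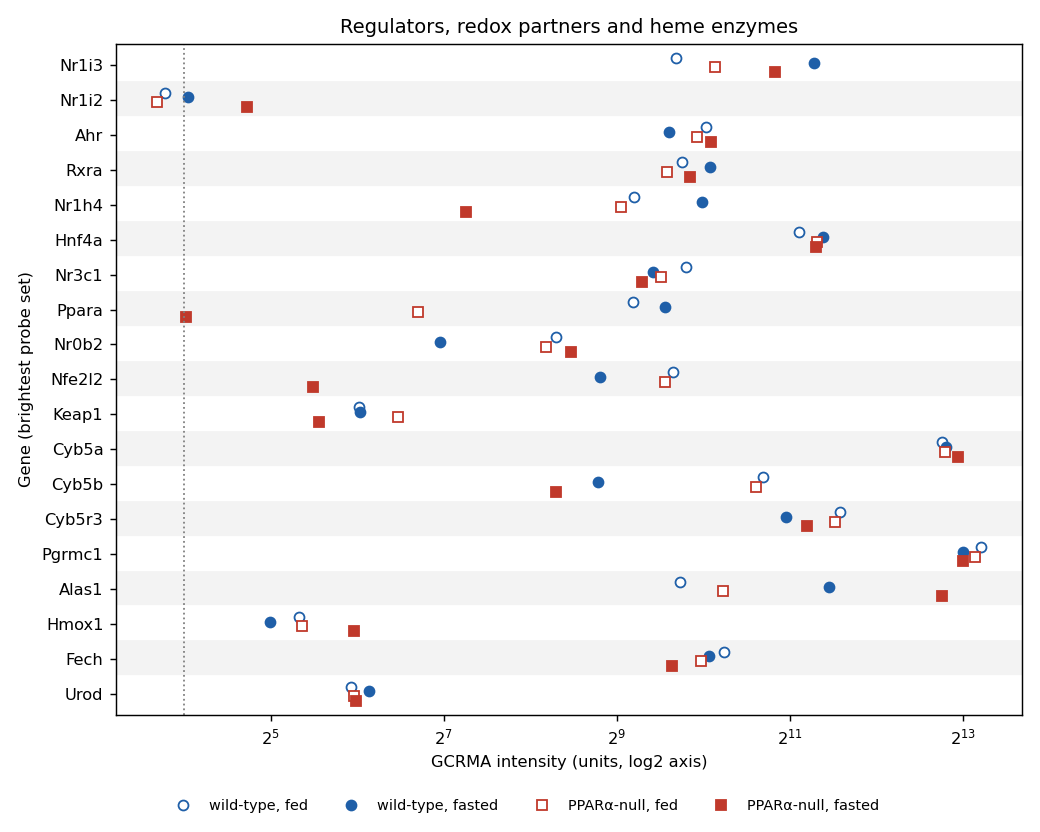
Intensity in units, on a log2 axis, of the measured regulators, redox partners and heme enzymes, in rows, with 1 point for each of the 4 pooled arrays and a dotted line at the floor of 16 units. Nr1i3 is highest on the fasted wild-type array (2479 units), Alas1 on the fasted null array (6931 units), and Nfe2l2 and Nr1h4 are lowest on the fasted null array (45.0 and 153 units).

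Targets of the same receptors that are not P450s were a list of 29, of which 22 had a probe set of their own and 20 were measured. In total 4 were higher and 2 lower in the fasted null compared with the fasted wild-type pool, with a median log2 difference of 0.12, and 4 were higher and 0 lower between the fed pools. The shares of all measured genes were 8.58% higher and 13.6% lower between the fasted pools, and 2.38% and 2.12% between the fed pools. Sult1e1, the estrogen sulfotransferase, was higher in the null pools in both feeding states, with 19.6 units and 79.6 units in wild-type and 371 units and 1636 units in null liver. The glutathione transferase gene Gstm2 had 744 units and 351 units in wild-type and 1731 units and 1854 units in null liver. Between the fasted pools the 4 higher genes were Sult1e1 (20.5-fold), Gstm2 (5.28-fold), Gstm3 (at least 3.70-fold) and Tiparp (2.58-fold). The probe set used for Gstm3 carries the suffix for shared probes, and its other probe set was at the floor in both fasted pools. The 2 lower genes were the carboxylesterase gene Ces1d and Aldh1a1. In the fasted null and fasted wild-type pools Ces1d had 2867 units and 5302 units, and Aldh1a1 had 5048 units and 7711 units. Tiparp, a target of the aryl hydrocarbon receptor, was dim at 19.2 to 49.6 units. Fasting was accompanied by 4 higher and 5 lower genes in wild-type and by 4 higher and 6 lower genes in null mice. Of all measured genes 8.20% were higher and 8.29% lower with fasting in wild-type mice, and 12.4% and 18.0% in null mice.

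Some markers of other cells and states moved with the comparison of the fasted pools. Over all measured genes 8.58% were higher and 13.6% lower in the null pool there, and 2.38% and 2.12% between the fed pools. Of 9 measured Kupffer cell and macrophage markers 8 were at least 1.5-fold higher in the fasted null than in the fasted wild-type pool and 0 lower, with summed intensities of 508 units and 1111 units, compared with 843 units and 865 units in the fed wild-type and null pools. The acute phase list of 12 genes had 7 that were higher and 0 that were lower in this comparison, with sums of 50745 units and 81562 units, and in the fed pools 5 were higher and 0 lower in the null, with sums of 59386 units and 62425 units. Of these, Saa2 was 5.21-fold, Lcn2 at least 5.31-fold and Saa1 2.15-fold higher in fed null liver. Between the fasted pools Lcn2 was 65.7-fold, Saa2 36.7-fold, Orm2 13.5-fold and Saa1 11.6-fold higher in the null. Of the measured stellate cell markers 2 of 3 were higher in the fasted null pool and 0 lower (sums of 1245 units and 1970 units), as were 2 of 4 endothelial markers (377 units and 714 units). Of the 10 hepatocyte markers 1 was higher and 0 were lower. The part of these lists in the P450 differences was not tested, and in RNA of whole liver fewer cells of a type and less RNA per cell cannot be told apart. Markers of exocrine pancreas, 5 of 6 of which were measured, summed to 656 units and 936 units in the fed and 128 units and 134 units in the fasted pools, mainly through Cela1. With fasting 1 of the 5 was lower in wild-type and 4 in null mice, and 3 were higher in fed null than in fed wild-type liver, while 0 differed past the threshold between the fasted pools. Of all measured genes 8.29% were lower with fasting in wild-type and 18.0% in null mice.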

How the data were processed

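Liver RNA of 4 groups was measured on 4 Affymetrix MOE430A arrays, 1 pool per group. The authors deposited linear intensities made by GCRMA, for which the processing notes of the submitters name version 2.20. It corrects background by probe sequence, normalizes quantiles and summarizes each probe set. The arrays that were normalized jointly are not given in the sources used here. The RNA amount for labelling and the statement that each pool held 5 mice vary between the sources. Groups came from the labels.

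Intensities were converted to log2 with Python 3.11.15, numpy 2.4.6 and pandas 2.3.3. Of the 22690 probe sets 64 are controls. Of the others 20380 name 1 gene in the platform annotation, 691 name several and 1555 are unnamed here. All 39 members were found in the RefSeq table by gene identifier, with 0 symbols changed. The 2 probe sets that list several P450 genes are no members. A floor was set at 16 units, a log2 of 4. A comparison subtracts the log2 values of 2 arrays, and differences were counted at 1.5-fold as in the study's treatment of pooled arrays, and the percentage of all measured genes past it is given as background. No test was possible. The procedure was tested on simulated data.

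Members with 64 units or more on 1 array are named with all values, and the listed regulators and partners that are described have all values or their range. The members and gene lists were chosen with earlier results of these data known. Promoter windows came from RefSeq (GRCm38.p6) and were aligned with Biopython 1.88. Protein identity was not analysed here. Alternatives were a 2-fold threshold, another or no floor, a filter on the mean, quantile normalization, centring on bright probe sets, leaving out probe sets with suffixes for shared probes, the mean of a gene's probe sets, and probe sets as the unit.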

Additional observations from a re-analysis of the deposited data

Results flagged for a closer look

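One signal lay outside the members. A probe set that lists 2 genes of the Cyp2a subfamily, and so names neither, had 3003 units in fed and 3812 units in fasted wild-type liver, and 9420 units in fed and 10640 units in fasted null liver. Both null pools were well above both wild-type pools, with log2 differences between the genotypes of 1.65 in the fed state (3.14-fold) and 1.48 in the fasted state (2.79-fold). It drew attention because no member with its own probe set that reached 64 units differed by 1.5-fold between the fed genotypes. Cyp2a12, the Cyp2a gene with a probe set of its own, differed by 0.19 and 0.38. Genotype and substrain cannot be told apart, and the difference was not tested.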

How the results depend on the processing

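The number of arrays limits every value: with 1 pooled array per group no spread between mice is known, and intensities near 16 units carry little signal. No paired analysis was possible because each group holds 1 pooled array and the labels carry no replicate numbers shared between groups. The 19 differences past 1.5-fold of P450 genes that reached 64 units kept their direction and stayed past 1.5-fold in all 113 recomputed values. These covered another or no floor, quantile normalization, centring, leaving out suffixes and the mean of probe sets. Many of these values could not change. Another floor leaves values above it as they are. A gene with 1 probe set and no suffix keeps its value when probe sets are averaged or left out. Of the dimmer genes, Cyp2c38 lost its differences with centring, and Cyp2c38 and Cyp2d12 lost theirs with the floor at 64 units. The counts moved more. At a 2-fold threshold, 2 genes instead of 6 were higher in the fasted null than in the fasted wild-type pool, and with fasting in wild-type mice 1 instead of 3 was higher and 3 instead of 7 were lower. With probe sets as the unit, 5 were lower between the fasted pools, and in null mice 4 were higher and 5 lower with fasting. Between the fed pools 0 genes were higher with the floor at 64 units and 0 with a mean of 64 units or more required. Centring shifted the fasted null array by 0.10 and the others by -0.02 to -0.05 on the log2 scale, and gave 4 higher genes with fasting in null mice. Averaging the probe sets of a gene added Cyp2j5 to the genes lower in the fasted null pool. Leaving out probe sets with suffixes for shared probes removed Cyp2c23.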

Other observations

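Genes whose liver expression depends on sex and growth hormone, as that of several P450 genes does, were measured for 7 of the 9 genes of that list with a probe set. With fasting 5 were lower and 1 higher in wild-type mice, with a median log2 difference of -1.01, and 4 were lower and 1 higher in null mice, with a median of -0.63. Among all measured genes 8.29% were lower and 8.20% higher in wild-type mice, and 18.0% and 12.4% in null mice. The male-predominant steroid dehydrogenase gene Hsd3b5 had 4580 units and 273 units in fed and fasted wild-type liver and 3864 units and 353 units in fed and fasted null liver. Elovl3, which encodes a fatty acid elongase, had 1100 units and 238 units in wild-type and 1246 units and 207 units in null liver. Both were low in the fasted pools of both genotypes, whereas the male-predominant Cyp2d9, whose only probe set can match several transcripts, was not.

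The 1 listed gene that was higher with fasting, in both genotypes, was the steroid 17α-hydroxylase gene Cyp17a1. It had 22.8 units and 858 units in fed and fasted wild-type liver and 21.7 units and 535 units in fed and fasted null liver. The organic anion transporter gene Slco1a1 had 2815 units and 1394 units in wild-type and 2517 units and 2483 units in null liver. Its second probe set had 1157 units and 614 units in wild-type and 1295 units and 784 units in null liver, so the probe sets disagree on the null mice, with log2 differences of -0.02 and -0.72 with fasting.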
